A study of Homo sapiens with 4 samples.

Results

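Nucleotide excision repair (NER) removes bulky lesions from DNA, among them the intrastrand crosslinks that cisplatin makes. Lesions are found either anywhere in the genome, by XPC and the DDB1-DDB2 ubiquitin ligase, or where a lesion stops RNA polymerase II, by the proteins encoded by ERCC6 and ERCC8. Both routes meet at the helicase complex TFIIH, which opens the DNA. XPA then checks the damage, the nucleases ERCC1-ERCC4 and ERCC5 cut on either side, and the gap is filled and sealed. The 29 genes described here were chosen by name for their step in this pathway, and all 29 had a row among the 13743 genes of the deposited table.

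Expression was measured by cap analysis of gene expression (CAGE), which reads the 5' ends of capped RNA, in the human bladder (urothelial) carcinoma cell line UM-UC-3. The series holds 2 samples of wild type cells and 2 of a cisplatin-resistant subline derived from them. Resistant cells were kept in DMEM with serum and 5 µM cisplatin (CDDP). No source used here gives the medium of the wild type cells, so acquired resistance and drug in the medium cannot be told apart. No label says whether the subline is a single clone or whether the samples of a group were grown separately, so the p-values reflect the spread among these 4 samples and nothing more, and that spread may be technical.

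Values are CPM, read counts scaled to the total of each column, and the samples held an estimated 17800736 to 21189237 reads. These totals, and the read numbers and read ratios given below, were inferred from the smallest step between the values of a column. Of the low values of resistant replicate 1, the column with the highest total, 92.5% came within 0.1 of a step of a whole read, against 100% in each of the other samples. Only genes that averaged 1 CPM or more were tested, and 12587 genes passed, including all 29 repair genes. Groups were compared with limma on log2(CPM + 1), and p-values were adjusted over all 12587 genes by the Benjamini-Hochberg method with a threshold of 0.05. Fold changes on this scale understate the change of low genes. CLSPN, the gene named in the series title, read 49.0 and 56.1 CPM in the wild type samples against 75.8 and 78.5 CPM in the resistant samples. Of 17 listed urothelial markers 4 were measured: KRT7, KRT8, KRT18 and TP63. The other 13, with the uroplakins and GATA3 among them, were not analysed here. KRT18 was at 306 and 309 CPM in wild type cells and at 90.5 and 85.5 CPM in resistant cells, 3.5 times higher in wild type (adjusted p = 7.22e-07), and KRT8, at 95.3 and 87.5 CPM against 43.5 and 43.2 CPM, was 2.11 times higher in wild type (1.72e-05). KRT7 rose 1.84 times, from 5.32 and 5.56 to 10.05 and 10 CPM (0.000734), and TP63, too low to test, was at 0.49 and 0.99 CPM in wild type cells and at 0 CPM in both resistant samples. The part of these marker shifts in the results below was not tested. Of 6 fibroblast markers COL1A1 and COL3A1 were measured, at 0.45 CPM or less in each sample, and none of 5 endothelial markers was analysed here. Of 9 blood cell markers CD68 alone was measured, at 71.5 and 52.2 CPM in the wild type samples against 28.0 and 29.9 CPM in the resistant samples, and its part in the results was not tested.

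The 5' ends of 4 genes are shown by the bases just upstream of their RefSeq start (GRCh38.p14), since CAGE reads begin at such starts and since these genes, 3 raised and 1 lowered, stayed past the threshold in every setting tried. Each is written 5' to 3' on the strand of the gene and ends at the base before the start. Capitals mark matches, on either strand, to the CCAAT box (CCAAT) or the GC box (GGGCGG). RAD23B lies on the plus strand at chr9:107283029-107283278, CETN2 on the minus strand at chrX:152830758-152831007, ERCC8 on the minus strand at chr5:60945071-60945205 and XPA on the minus strand at chr9:97697341-97697590. The ERCC8 stretch is the whole space of 135 bases up to the first base of NDUFAF2, which is read the other way.
RAD23B: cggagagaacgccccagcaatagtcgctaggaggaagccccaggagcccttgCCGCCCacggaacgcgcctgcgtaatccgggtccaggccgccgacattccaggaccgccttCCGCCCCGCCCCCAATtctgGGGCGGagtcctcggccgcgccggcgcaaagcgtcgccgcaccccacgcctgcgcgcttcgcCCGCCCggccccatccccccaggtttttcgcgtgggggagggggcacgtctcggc
CETN2: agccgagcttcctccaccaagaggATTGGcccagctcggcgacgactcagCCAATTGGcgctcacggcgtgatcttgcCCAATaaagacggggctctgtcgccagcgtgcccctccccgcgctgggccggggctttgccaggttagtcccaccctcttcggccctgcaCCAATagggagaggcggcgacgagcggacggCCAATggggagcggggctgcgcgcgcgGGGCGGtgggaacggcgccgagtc
ERCC8: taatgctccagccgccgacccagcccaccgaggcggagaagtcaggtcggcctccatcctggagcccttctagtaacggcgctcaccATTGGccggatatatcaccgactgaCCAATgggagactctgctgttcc
XPA: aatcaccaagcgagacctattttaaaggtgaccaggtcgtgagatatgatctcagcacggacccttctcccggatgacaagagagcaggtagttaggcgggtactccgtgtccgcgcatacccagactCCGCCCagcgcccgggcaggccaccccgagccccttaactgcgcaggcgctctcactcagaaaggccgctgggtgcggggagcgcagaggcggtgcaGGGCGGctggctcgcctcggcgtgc

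CETN2 held 6 CCAAT boxes, of which a facing pair overlaps in the run CCAATTGG; 36.5% of 8973 promoters of this length held at least 1 and 0.134% held at least 6. The ERCC8 stretch held 2, one in each direction, where 27.4% of promoters held at least 1 in the nearest 135 bases. The share with at least 2 there was not taken. RAD23B, CETN2 and XPA held at least 1 GC box, as did 69.5% of all promoters. RAD23B held 5, a count whose share was not taken, and there a CCAAT box also adjoins a pair of overlapping GC boxes. Over the 29 repair genes, 18 held a GC box, 10 a CCAAT box and 8 the ETS motif CCGGAAG (17.8% of all promoters). The E box CACGTG was in 6 of the 29 and in 9.33% of all promoters. None of the 29 held a TATA box (TATAAA; 4.93% of all promoters). These matches describe letters only, and not all of the 29 starts were checked. For DDB2, CUL4B and ERCC1 no coding transcript of GENCODE 29 started within 100 bases of the RefSeq start.

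As a group the repair genes moved in both directions. In resistant cells 9 of the 29 were higher, 7 were lower and 13 did not pass the test (limma, adjusted p under 0.05). That is 16 of 29, or 55.2%, and 55.2% of all tested genes were called, 33.5% higher and 21.6% lower, so the number called says nothing about these genes in particular. The median log2 fold change was 0.11 for the repair genes and 0.09 for all tested genes. The groups did not overlap in 22 of the 29 genes (75.9%), against 78.5% of all tested genes. The direction of small changes rests on scaling: after quantile normalization 5 repair genes were higher and 9 lower, and among all genes the split of 4221 higher to 2724 lower became 3518 to 3415. In bulk RNA, fewer expressing cells and less RNA per cell cannot be told apart.

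By step the counts differed as follows. Transcription-coupled recognition had 3 of 5 genes higher and none lower, and the CDK-activating kinase of TFIIH had 2 of 3 higher and none lower. Global genome recognition had 1 of 8 higher and 4 lower. The TFIIH core had 1 of 7 higher and 1 lower, damage check and incision 2 of 4 higher and 2 lower, and ligation none of 2 in either direction. Among all tested genes 33.5% were higher and 21.6% lower, and lists of 2 to 8 genes are too short to be set apart from these shares. No test compared the steps with each other.

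**Figure D1:**
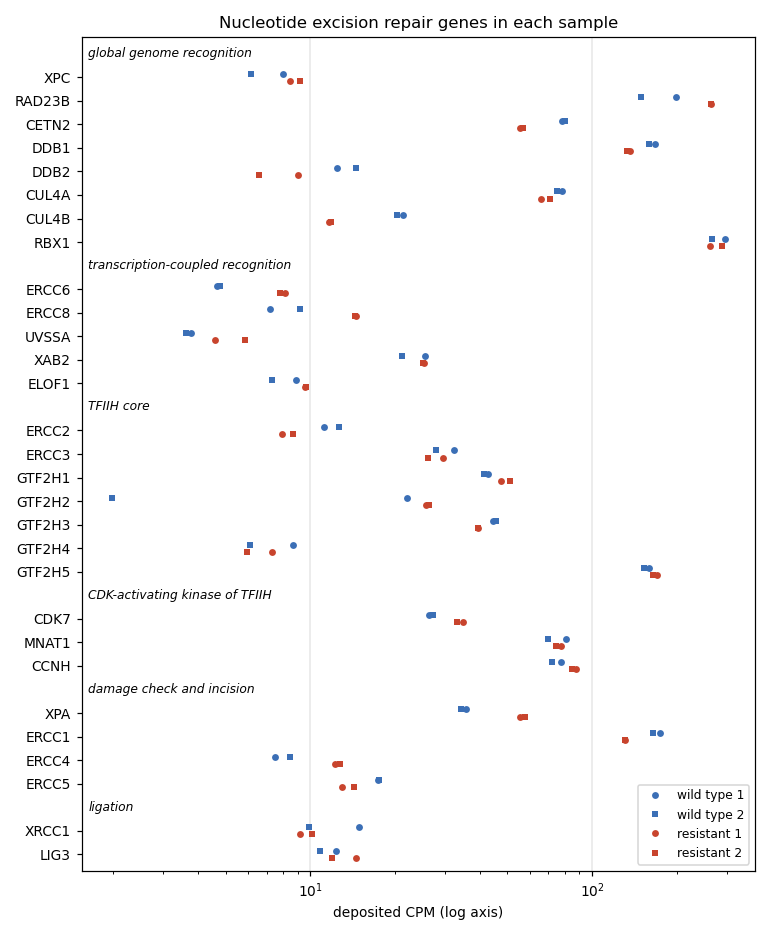
Deposited CPM (log axis) of each of the 29 repair genes in the 4 samples, by step; blue marks are wild type, red marks resistant, circles replicate 1 and squares replicate 2. XPA, ERCC8 and CUL4B show separated groups, and GTF2H2 shows 1 wild type sample at 1.98 CPM far below the other 3.

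Global genome recognition begins with XPC, which binds the distorted helix in a complex with RAD23B and CETN2. RAD23B, which stabilizes XPC, read 198 and 149 CPM in the wild type samples against 265 and 264 CPM in the resistant samples. It rose 1.52 times, with a log2 fold change of 0.62 ± 0.12 (SE; limma, adjusted p = 0.00254), and the resistant samples lay together while the wild type samples were apart. CETN2, the centrin of the complex, went the other way: it read 78.0 and 80.4 CPM in the wild type samples against 55.6 and 57.0 CPM in the resistant samples, 1.41 times higher in wild type (log2 fold change -0.49 ± 0.07, adjusted p = 0.000572). XPC itself read 8.01 and 6.17 CPM in the wild type samples against 8.45 and 9.16 CPM in the resistant samples, and did not pass (adjusted p = 0.119). Its log2 fold change of 0.29 became 0.45 when wild type replicate 1 was left out, which passed (adjusted p = 0.0256), and 0.12 when wild type replicate 2 was (0.465). The XPC values rest on 258 wild type and 342 resistant reads.

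The second sensor is the DDB1-DDB2 pair on a CUL4 ubiquitin ligase. DDB2, the subunit that contacts the lesion and a known p53 target, read 12.4 and 14.5 CPM in the wild type samples against 9.06 and 6.57 CPM in the resistant samples. It was 1.72 times higher in wild type (log2 fold change -0.72 ± 0.16, adjusted p = 0.00474), with both resistant samples below both wild type samples. DDB1, the adaptor that DDB2 shares with the ERCC8 ligase, read 167 and 159 CPM in the wild type samples against 136 and 133 CPM in the resistant samples, 1.21 times higher in wild type (adjusted p = 0.00772). That call ended without resistant replicate 1 (adjusted p = 0.0734) and without resistant replicate 2 (0.104). CUL4B, one of the alternative cullin scaffolds, had the most negative fold change of the 29: 21.4 and 20.3 CPM in wild type against 11.7 and 11.8 CPM in resistant samples, 1.78 times higher in wild type (log2 fold change -0.78 ± 0.10, adjusted p = 0.00029). CUL4A, the other scaffold, read 78.5 and 75.3 CPM in the wild type samples against 65.9 and 71.1 CPM in the resistant samples, and its difference missed the threshold (adjusted p = 0.0889). CUL4A did pass as lower under TMM scaling (adjusted p = 0.0214), median-ratio scaling (0.0177) and quantile normalization (0.0123). RBX1, the RING subunit that recruits the ubiquitin-conjugating enzyme, read 295 and 268 CPM in the wild type samples against 261 and 290 CPM in the resistant samples, with overlapping groups.

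Transcription-coupled repair starts with ERCC6 (also called CSB), a DNA translocase that binds stalled RNA polymerase II. ERCC6 read 4.66 and 4.79 CPM in the wild type samples against 8.12 and 7.81 CPM in the resistant samples, a rise of 1.69 times (log2 fold change 0.65 ± 0.12, adjusted p = 0.00229). It rests on 172 wild type and 311 resistant reads, and the ratio of summed reads, 1.69, had an exact 95% interval of 1.40 to 2.05, which covers counting error only. ERCC8 (CSA), the substrate receptor that ERCC6 recruits, read 7.18 and 9.20 CPM in the wild type samples against 14.5 and 14.4 CPM in the resistant samples. Its rise of 1.77 times was the steepest among the genes called higher (log2 fold change 0.76 ± 0.13, adjusted p = 0.00159), and its read ratio of 1.77 had an interval of 1.53 to 2.04.

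UVSSA, which brings TFIIH to the stalled polymerase, read 3.78 and 3.63 CPM in the wild type samples against 4.58 and 5.84 CPM in the resistant samples, a rise of 1.41 times just inside the threshold (adjusted p = 0.0481). Of the 13 alternatives that tested UVSSA 8 ended the call, with adjusted p up to 0.305 without resistant replicate 2; its fold change stayed positive in each. ELOF1, an elongation factor that helps position the ERCC6-ERCC8 machinery, read 8.88 and 7.32 CPM in the wild type samples against 9.58 and 9.66 CPM in the resistant samples (adjusted p = 0.157), and passed without wild type replicate 1 (0.0487). XAB2, an XPA-binding splicing factor, read 25.5 and 21.2 CPM in the wild type samples against 25.3 and 25.1 CPM in the resistant samples, with overlapping groups.

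TFIIH carries both helicases of the pathway. ERCC2 (XPD), the helicase that opens the DNA for repair, read 11.2 and 12.7 CPM in the wild type samples against 7.93 and 8.65 CPM in the resistant samples, 1.44 times higher in wild type (log2 fold change -0.48 ± 0.12, adjusted p = 0.00934). The ERCC2 call ended without resistant replicate 1 (adjusted p = 0.0796). ERCC3 (XPB), the translocase of the complex, read 32.4 and 27.8 CPM in the wild type samples against 29.5 and 26.1 CPM in the resistant samples, with overlapping groups. GTF2H1 (p62), the subunit that UVSSA and XPC bind, read 42.6 and 41.5 CPM in the wild type samples against 47.7 and 51.3 CPM in the resistant samples, a rise of 1.18 times (adjusted p = 0.0336) that 7 of 14 alternatives ended, among them the fits without wild type replicate 2 (0.0586), resistant replicate 1 (0.0941) and resistant replicate 2 (0.259). GTF2H3 read 44.4 and 45.7 CPM in the wild type samples against 39.3 and 39.4 CPM in the resistant samples; it narrowly missed the threshold (adjusted p = 0.0575) and passed as lower in 4 of 14 alternatives, the fit without wild type replicate 1 among them (0.048). GTF2H5 read 159 and 152 CPM in the wild type samples against 170 and 165 CPM in the resistant samples (adjusted p = 0.19). GTF2H4 read 8.66 and 6.11 CPM in the wild type samples against 7.32 and 5.95 CPM in the resistant samples, and shares all 4 values with the row AL669830.2.

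GTF2H2 (p44), the partner that stimulates ERCC2, cannot be read from its own row. It was listed at 22.0 and 1.98 CPM in the wild type samples against 25.8 and 26.3 CPM in the resistant samples, so 1 wild type sample stood far below the other 3. Its log2 fold change of 1.71 ± 0.73 did not pass (adjusted p = 0.0778); leaving out wild type replicate 2 gave 0.23 (adjusted p = 0.0655), and leaving out wild type replicate 1 gave 3.18 (8.7e-06). It passed as higher under median-ratio scaling (adjusted p = 0.0465) and with a replicate block (0.00627), and missed under a robust trend (0.419). GTF2H2 has the near-identical copy GTF2H2C, between which reads may be divided. GTF2H2C read 16.8 and 19.2 CPM in the wild type samples against 24.5 and 24.4 CPM in the resistant samples, and wild type replicate 2 was not low there. The sum of both rows, an alternative chosen after the values were seen, gave a log2 fold change of 0.79 (limma, adjusted p = 0.0153). This sum still holds the 1.98 CPM of wild type replicate 2, so whether GTF2H2 rose stays unsettled.

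The kinase arm of TFIIH, made of CDK7, CCNH and MNAT1, phosphorylates RNA polymerase II and is released from TFIIH during repair. CDK7, the kinase, read 26.4 and 27.3 CPM in the wild type samples against 34.9 and 33.2 CPM in the resistant samples, a rise of 1.27 times (log2 fold change 0.33 ± 0.08, adjusted p = 0.00951). Quantile normalization ended the CDK7 call (adjusted p = 0.0792), as did leaving out resistant replicate 1 (0.102) or resistant replicate 2 (0.0561). CCNH, its cyclin, read 77.7 and 72.2 CPM in the wild type samples against 87.5 and 85.0 CPM in the resistant samples (1.15 times, adjusted p = 0.0414), a call that 7 of 14 alternatives ended, with adjusted p up to 0.309; it ended without wild type replicate 2 (0.086), resistant replicate 1 (0.245) or resistant replicate 2 (0.163). MNAT1, the assembly factor, read 80.9 and 69.5 CPM in the wild type samples against 77.5 and 74.2 CPM in the resistant samples, where the resistant values lay between the wild type ones.

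At the incision step all 4 genes passed, in opposite directions. XPA, the scaffold that checks the lesion and places the ERCC1-ERCC4 nuclease, read 35.7 and 34.3 CPM in the wild type samples against 55.5 and 57.9 CPM in the resistant samples. Its rise of 1.62 times had the smallest adjusted p of the 29 (log2 fold change 0.68 ± 0.08, adjusted p = 0.000165), with each pair of replicates close together. ERCC4 (XPF), the catalytic subunit of the nuclease that cuts on the 5' side, read 7.51 and 8.48 CPM in the wild type samples against 12.2 and 12.7 CPM in the resistant samples, a rise of 1.56 times (log2 fold change 0.58 ± 0.11, adjusted p = 0.00313). Its read ratio of 1.55 had an interval of 1.34 to 1.80, from 291 and 484 reads.

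ERCC1, the non-catalytic partner that binds ERCC4 and XPA, fell while ERCC4 rose. It read 175 and 165 CPM in the wild type samples against 131 CPM in each resistant sample, 1.30 times higher in wild type (log2 fold change -0.37 ± 0.07, adjusted p = 0.00176). ERCC5 (XPG), the nuclease of the 3' side, read 17.4 and 17.5 CPM in the wild type samples against 12.9 and 14.3 CPM in the resistant samples, 1.28 times higher in wild type (log2 fold change -0.34 ± 0.10, adjusted p = 0.0222), and lost its call without resistant replicate 1 (0.171) or resistant replicate 2 (0.0598). The read-through row BIVM-ERCC5, which overlaps ERCC5 on the same strand, read 13.1 and 11.7 CPM in the wild type samples against 8.07 and 7.70 CPM in the resistant samples. BIVM, which overlaps on the same strand too, read 28.1 and 23.5 CPM in the wild type samples against 19.4 and 18.5 CPM in the resistant samples (limma, log2 fold change -0.42, adjusted p = 0.0111). Summing the ERCC5 and BIVM-ERCC5 rows, chosen after the values were seen, gave a log2 fold change of -0.45 (adjusted p = 0.00269). At which start the summed reads begin was not tested, so the sum is not a value of ERCC5 alone.

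Of the sealing genes among the 29, LIG3, a DNA ligase, read 12.3 and 10.8 CPM in the wild type samples against 14.5 and 11.97 CPM in the resistant samples (adjusted p = 0.269). XRCC1, the scaffold that LIG3 binds, read 14.9 and 9.86 CPM in the wild type samples against 9.16 and 10.1 CPM in the resistant samples (adjusted p = 0.167). The log2 fold change of XRCC1, -0.31, became -0.03 when wild type replicate 1 was left out (adjusted p = 0.847) and -0.58 when wild type replicate 2 was (0.00744), so the wild type replicates decide this value. Over the 29 genes the wild type samples differed by a median of 0.142 on the log2 scale and the resistant samples by 0.062, against 0.124 and 0.083 over all tested genes.

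**Figure D2:**
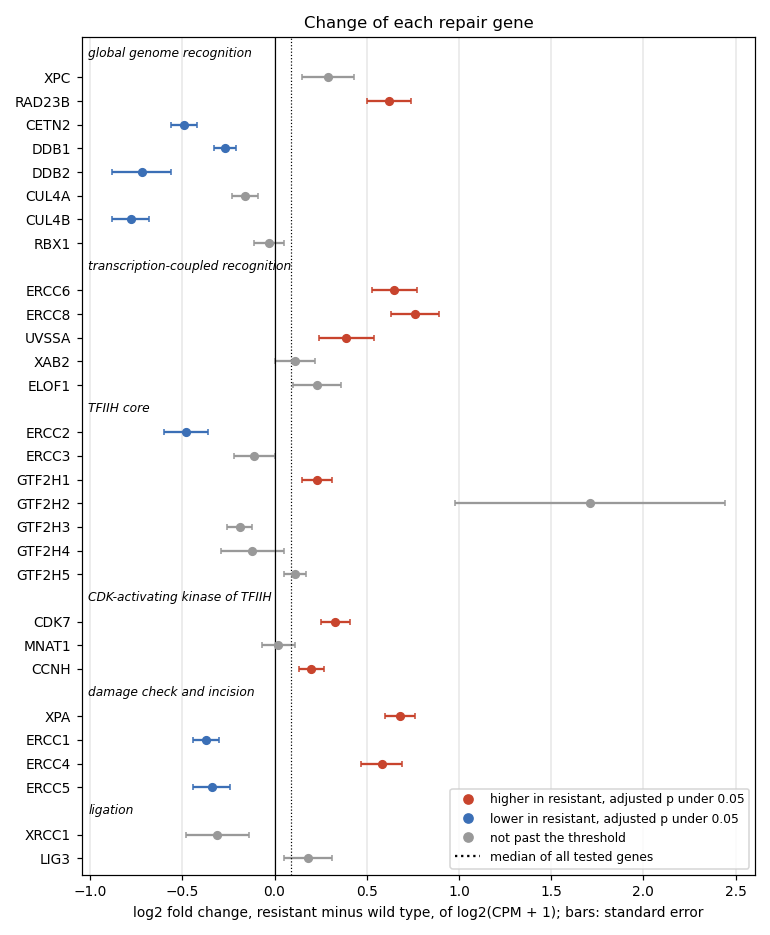
Log2 fold change, resistant minus wild type, of log2(CPM + 1) for each repair gene, with the standard error of the limma fit as bars; red was called higher, blue lower and grey not called, and the dotted line is the median of all tested genes, 0.09. ERCC8 at 0.76 and CUL4B at -0.78 are the outermost called genes, and GTF2H2 carries by far the widest bar.

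Of the 16 calls 9 held in all 14 alternatives: RAD23B, ERCC6, ERCC8, XPA and ERCC4 as higher, and CETN2, DDB2, CUL4B and ERCC1 as lower. The share of all tested genes that held in every alternative was not taken, so the count does not set these genes apart. Over the alternatives the fold change of XPA lay between 0.55 and 0.71 and that of ERCC8 between 0.60 and 0.92. That of ERCC4 lay between 0.49 and 0.66 and that of ERCC6 between 0.57 and 0.70. RAD23B was the least even of the raised genes, from 0.41 when wild type replicate 2 was left out to 0.82 when wild type replicate 1 was. The lowered genes lay between -0.60 and -0.46 for CETN2, -0.93 and -0.52 for DDB2, -0.89 and -0.73 for CUL4B and -0.46 and -0.33 for ERCC1. The largest adjusted p any of the 9 reached was 0.0453, for DDB2.

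**Figure D3:**
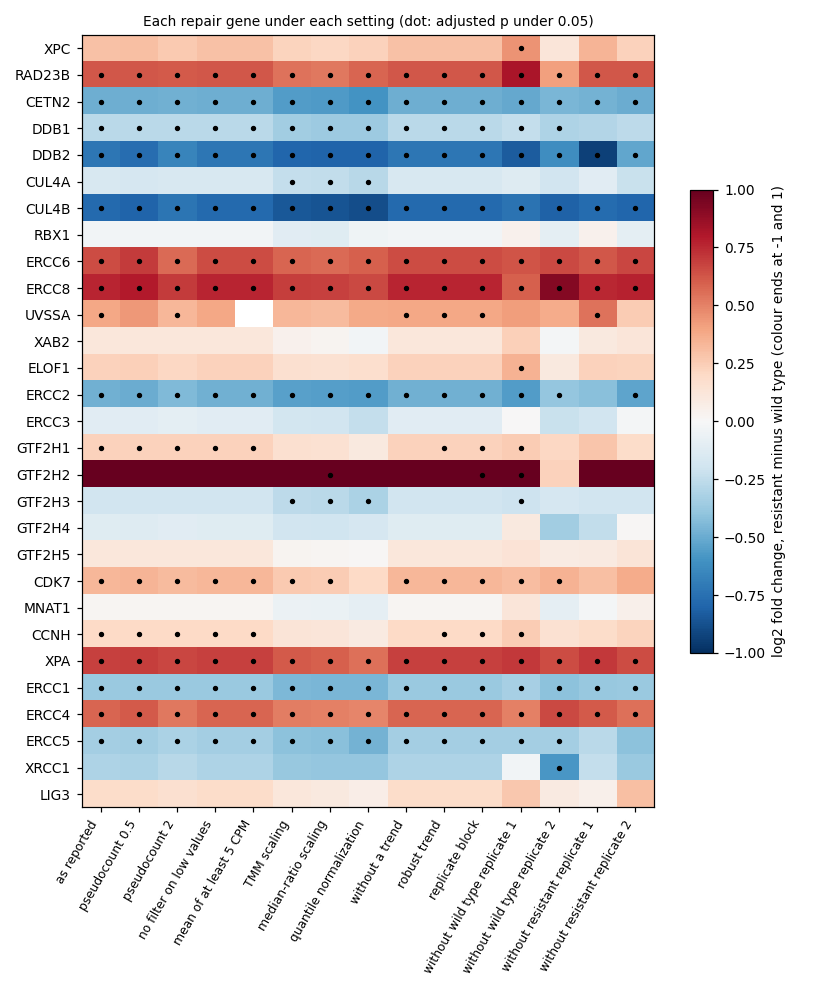
Log2 fold change (colour, ending at -1 and 1) of each repair gene under the reported setting and the 14 alternatives, with a dot where the adjusted p was under 0.05; the white cell is a gene not tested there. Rows such as XPA, CUL4B and ERCC1 carry a dot in every column, whereas UVSSA, GTF2H1 and CCNH lose theirs in many.

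Because partners of a complex moved apart, their CPM ratio was taken within each sample. The pairs were picked after the values were seen, only the change of a ratio between samples can be read, and with 2 samples against 2 an exact two-sided permutation test cannot go below p = 0.333, so these are descriptions. The ERCC1 to ERCC4 ratio was 23.3 and 19.4 in wild type and 10.8 and 10.3 in resistant samples, 2.03 times higher in wild type. The XPA to ERCC1 ratio went the other way, from 0.204 and 0.208 to 0.423 and 0.443. Both resistant samples lay outside the wild type range for each of these incision pairs. This follows from genes already separated in opposite directions and adds no further result.

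Ratios at the recognition step also shifted, where RAD23B and CETN2, like ERCC8 and DDB1, had already been called in opposite directions. RAD23B to CETN2 went from 2.54 and 1.86 in wild type to 4.76 and 4.64 in resistant samples, and CUL4A to CUL4B from 3.67 and 3.70 to 5.65 and 6.03. ERCC8 to its adaptor DDB1 went from 0.043 and 0.0578 to 0.107 and 0.108, whereas DDB1 to DDB2 went from 13.5 and 11 to 15.1 and 20.3. The ratio of ERCC6 to ERCC8, both of which rose, read 0.649 and 0.521 in wild type and 0.558 and 0.543 in resistant samples, with the resistant values inside the wild type range.

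**Figure D4:**
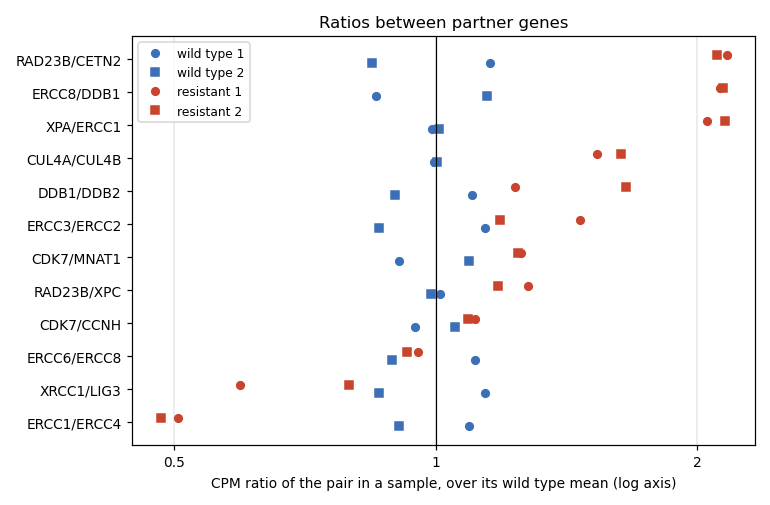
CPM ratio of each partner pair in each sample, divided by the wild type mean of that ratio (log axis); blue marks are wild type, red marks resistant, circles replicate 1 and squares replicate 2. RAD23B/CETN2, ERCC8/DDB1 and XPA/ERCC1 lie near 2 in resistant samples, ERCC1/ERCC4 lies near 0.5, and ERCC6/ERCC8 overlaps.

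In 8 repair genes the start faces away from that of another tested gene within 1000 bases, going by RefSeq starts. ERCC8 and NDUFAF2, an assembly factor of respiratory complex I, start 135 bases apart, the stretch printed above. NDUFAF2 read 49.8 and 52.3 CPM in the wild type samples against 76.6 and 83.3 CPM in the resistant samples, and rose with ERCC8 (log2 fold change 0.64 ± 0.08, adjusted p = 0.000234). CETN2 and NSDHL, an enzyme of cholesterol synthesis, start 306 bases apart. NSDHL read 78.6 and 77.9 CPM in the wild type samples against 45.6 and 45.0 CPM in the resistant samples, and fell with CETN2 (log2 fold change -0.78 ± 0.07, adjusted p = 5.33e-05).

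LSM3, which faces XPC across 216 bases, rose 1.25 times (log2 fold change 0.32, adjusted p = 0.00351) beside the fold change of 0.29 of XPC, which did not pass. EIF2B1, which faces GTF2H3 across 143 bases, was 1.18 times higher in wild type (adjusted p = 0.0325). TKFC beside DDB1, HPS5 beside GTF2H1, PET100 beside XAB2 and SERAC1 beside GTF2H5 did not pass. The annotated bodies of XPC and LSM3, DDB1 and TKFC, and GTF2H3 and EIF2B1 also overlap on opposite strands, and without stated strand use their reads may not be separated. In 6 of the 8 pairs, these 3 among them, the fold changes had the same sign. So did 473 of 674 such pairs among the tested genes with a RefSeq start (70.2%), where some read-through rows count as pairs of their own. Where both genes of a pair were called they went the same way in 2 of 2 pairs here and in 192 of 213 overall (90.1%).

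The direction of each repair gene was also set beside that of its chromosomal neighbourhood. For each gene the median log2 fold change of up to 25 tested genes on either side, in the order of GENCODE 29, was taken; the width was chosen after the data were seen. Of the 29 repair genes 25 had the sign of their neighbours' median (86.2%), as did 68.9% of all tested genes. The exceptions were GTF2H1, called higher at 0.23 with a neighbour median of -0.15, and XRCC1, XAB2 and MNAT1, which were not called. For 10 neighbours on either side the counts were 24 of 29 and 69.5%. The share was not taken over genes with changes of like size. RAD23B and XPA, both on chromosome 9, had neighbour medians of 0.34 each, ERCC8 on chromosome 5 had 0.32, ERCC4 on chromosome 16 had 0.33 and ERCC6 on chromosome 10 had 0.30.

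Both repair genes on chromosome X fell among falling neighbours. Of the 50 genes around CETN2 44 had negative fold changes, of those around CUL4B 46, and the neighbour median was -0.49 for each, equal to the fold change of CETN2 itself. Over all 375 tested genes of chromosome X the median was -0.37, the lowest of any chromosome, and over the 491 of chromosome 9 it was 0.34. ERCC1 and ERCC2, close together on chromosome 19, had neighbour medians of -0.23 and -0.22. DDB2 stood apart from its surroundings: its neighbours' median was -0.02, so its fold change lay 0.70 below them (a difference of -0.70), the widest gap of the 29 after GTF2H2. Gene copy number was not measured, and the part of the neighbourhood in the changes of single genes was not tested.

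**Figure D5:**
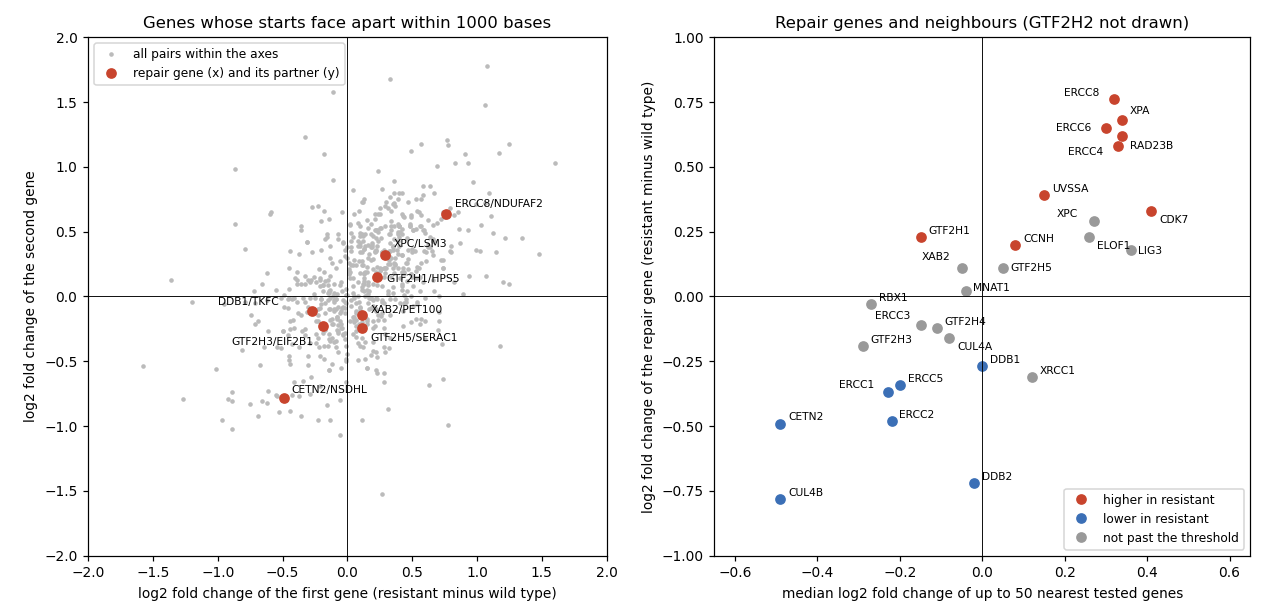
Left, log2 fold changes of 2 genes whose starts face apart within 1000 bases, for all such pairs (grey, those within the axes) and for the 8 pairs with a repair gene (red, repair gene on the x axis). Right, log2 fold change of each repair gene but GTF2H2 against the median of up to 50 neighbouring tested genes, with red called higher, blue lower and grey not called; CETN2 and CUL4B lie at the lower left, XPA and ERCC8 at the upper right, and DDB2 is low above a neighbour median near 0.

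Genes that act before or after these steps were followed in 3 further lists. Of 19 genes that bind single strands, fill the gap or, in the case of LIG1, seal it, 11 rose and 2 fell. That is 68.4% called against 55.2% of all tested genes (33.5% higher, 21.6% lower). The median log2 fold change of the list was 0.29, against 0.09 for all tested genes. LIG1, a DNA ligase, read 43.0 and 53.1 CPM in the wild type samples against 41.0 and 43.8 CPM in the resistant samples, with overlapping groups. RPA2, a subunit of the single-strand binding protein RPA that works with XPA, read 41.0 and 40.3 CPM in the wild type samples against 64.4 and 63.4 CPM in the resistant samples (1.57 times, adjusted p = 0.000168). RPA3 rose 1.43 times (adjusted p = 0.000531), and POLE4, an accessory subunit of DNA polymerase epsilon, 1.53 times (0.000209). The 2 genes that fell were POLE, the catalytic subunit of that polymerase, and POLD2. POLE was 1.39 times higher in wild type (limma, adjusted p = 0.00173) and POLD2 1.16 times (0.0276). RPA1, the large subunit, read 57.9 and 70.7 CPM in the wild type samples against 63.7 and 64.6 CPM in the resistant samples, with overlapping groups. These genes also serve replication, and the proliferation marker MKI67 read 119 and 121 CPM in the wild type samples against 234 and 232 CPM in the resistant samples; its part in the list was not tested.

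Of 17 partners and regulators of recognition 6 rose and 2 fell, 47.1% called against the same 55.2%, so the count does not set this list apart. PARP1, a poly(ADP-ribose) polymerase that assists DDB2, read 106 and 108 CPM in the wild type samples against 186 and 198 CPM in the resistant samples (1.80 times, adjusted p = 3.05e-05). COPS8, a subunit of the signalosome that restrains CUL4 ligases, rose 1.75 times (adjusted p = 3.92e-05). Of the other signalosome subunits listed, COPS7A and COPS7B also rose, and GPS1, COPS2, COPS3, COPS4, COPS5 and COPS6 did not pass. TCEA1, an elongation factor that rescues backtracked polymerase, was 1.63 times higher in wild type (adjusted p = 6.38e-05). Of the 12 subunits of RNA polymerase II 4 rose and 4 fell, 66.7% called against 55.2%. POLR2C rose 1.46 times (adjusted p = 0.000323), POLR2L was higher in wild type by 1.45 times (0.00101) and POLR2K by 1.26 times (0.00263).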

How the data were processed

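CAGE libraries of 4 samples were analysed, 2 per group, with groups taken from the sample titles. The authors deposited CPM values, 1 column per sample, for 13743 genes. Per the submitters' processing notes, BWA 0.5.9 belongs to the tools; they list mm9 beside hg19 without saying what each served for. The counting tool, annotation, strand use and gene filter are given in none of the sources used here. Low values step by 0.0472 to 0.0562 CPM per column, taken as 1 read. This gave the read totals and the exact (Clopper-Pearson) 95% intervals of read ratios. No count model was run, because in resistant replicate 1 only 92.5% of low values came within 0.1 of a step of a whole read. In single samples 3 reads equal 0.142 to 0.169 CPM.

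Genes averaging 1 CPM or more were fitted with limma 3.58.1 in R 4.3.3 (lmFit, eBayes with a trend) on log2(CPM + 1), group as the only term. As a check of the code, the fit was run on simulated data in which few genes changed. That run does not show how far the p-values given here can be trusted. Without stated strand use, reads of overlapping genes may not be separated: 9 members overlap another tested row in GENCODE 29, among them DDB1, ERCC1 and CUL4A, and 2, ERCC5 and GTF2H4, on the same strand. Starts and sequences came from RefSeq (GRCh38.p14, all 29 members matched by symbol; 8973 genes of the table); the build of the deposited values is not settled. For RAD23B 1 of 2 coding transcripts of GENCODE 29, and for CETN2, ERCC8 and XPA the only one, start within 100 bases of the RefSeq start. For ERCC6 2 of 4 and for ERCC4 2 of 2 did, but for DDB2 and CUL4B none of 3 and for ERCC1 none of 6. The other members were not checked, so motif counts and facing starts rest partly on unchecked starts.

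Named are all members, the 3 genes with the smallest adjusted p of each further list, CLSPN, and partners whose starts face apart; others are named as the text says. RPA1, LIG1, POLE, POLD2, MKI67, GTF2H2C, BIVM-ERCC5, BIVM, the further signalosome subunits and the genes shown for cell type were added as context. The members and lists were chosen with earlier results of these data known. No label says whether samples with the same replicate number belong together.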

Additional observations from a re-analysis of the deposited data

How the results depend on the processing

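Results were recomputed under 14 other settings: pseudocounts of 0.5 and 2, no filter on low values, a mean of at least 5 CPM (which does not test UVSSA), TMM, median-ratio and quantile scaling, no trend, a robust trend, a replicate block and each sample left out. The count of 9 repair genes higher and 7 lower became 5 and 9 under quantile normalization, 6 and 9 under TMM scaling and 7 and 9 under median-ratio scaling; it lay between 5 and 11 higher and between 4 and 8 lower with 1 sample left out. With 1 sample left out, all tested genes gave 2677 to 4394 higher and 1719 to 2784 lower. The called genes per list then lay between 0 and 2 for the kinase of TFIIH, 0 and 4 for the TFIIH core, 0 and 1 for ligation, 6 and 14 for gap filling and 4 and 8 for RNA polymerase II. The kinase list had 1 called gene under TMM scaling, 1 under median-ratio scaling, 0 under quantile normalization and 1 without a trend, and the TFIIH core 1 without a trend. Signs turned for MNAT1 under TMM (-0.06), median-ratio (-0.07) and quantile (-0.09) scaling, without wild type replicate 2 (-0.09) and without resistant replicate 1 (-0.02), and for XAB2 under quantile normalization (-0.03) and without wild type replicate 2 (-0.02). They also turned for RBX1 without wild type replicate 1 and without resistant replicate 1 (0.04 each) and for GTF2H4 without wild type replicate 1 (0.10) and without resistant replicate 2 (0.01); with 1 sample left out, the fold changes ran from -0.09 to 0.12 for MNAT1, -0.02 to 0.24 for XAB2, -0.10 to 0.04 for RBX1 and -0.35 to 0.10 for GTF2H4. None of these 4 genes was called, and the cause was not tested. The replicate numbers give 2 pairs whose deviations correlated at -0.0788 over the tested genes. No label states a pairing, and 1 correlation from 4 samples cannot exclude it. With the replicate block 10 repair genes were higher and 7 lower; all 16 calls were kept and GTF2H2 was added (adjusted p = 0.00627), and among all genes 4320 were higher and 2778 lower. Depth limits ERCC6 and UVSSA most, with the fewest wild type reads, and 2 samples per group limit every result.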
